A study of Mus musculus with 6 samples.

Results

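GPR41 knockout colon was compared with wild-type colon (WT) after ethanol, gene by gene. Each of the 18194 genes that could be tied to 1 symbol of the array entered, so the comparison covers 18194 of 18194 measured genes in 4 of the 6 arrays of the series. All 6 arrays came from colon of C57BL/6 mice aged 6 to 8 weeks, taken 24 h after ethanol was injected rectally. Each of the genotypes WT, GPR41 KO and GPR43 KO had 2 arrays, written here as WT 1, GPR41 KO 2 and so on, and the GPR43 KO arrays were used for the estimate of the spread and for values set side by side. Every group had received ethanol, and ethanol-free colon was not analysed here, so each difference is between genotypes after the injury and not between injured and healthy tissue. The sources used here do not give the deleted part of either gene. No label tells if a group's arrays are separate animals, so p-values reflect only the spread between these samples, which may be technical.

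GPR41, encoded by Ffar3, and GPR43, encoded by Ffar2, are cell surface receptors that respond to acetate, propionate and butyrate, the short-chain fatty acids that gut bacteria release from dietary fibre. Ethanol given rectally damages the epithelium, and injured colon is known to make chemokines such as CXCL2 that draw neutrophils out of the blood, cytokines such as interleukin 1 beta and interleukin 6, and acute phase proteins. A separate defence programme follows type I interferon, which acts through a short DNA element (the interferon-stimulated response element) ahead of antiviral genes such as the Ifit and Oas families.

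The results below turn on 2 groups of genes, and the DNA ahead of a few of their members is shown because each carries 2 copies of the motif known for its group. The stretches are the 250 bases before the start of a transcript in the promoter table, from RefSeq on GRCm38.p6, written 5′ to 3′ on the gene's own strand, with motif copies in capitals. For the interferon group they are Ifit1 (chr19:34640639-34640888), Ifit3 (chr19:34583279-34583528) and Ddx60 (chr8:61927837-61928086), all on the plus strand, where the capitals mark GAAA, any 2 bases and GAAA again, or the reverse complement, a form of the interferon-stimulated response element. For Ifit3 and Ddx60 the gene as a whole begins before that start, at 34583119 and 61928073, so the stretch lies within or overlaps the span of the gene. For the chemokines it is Cxcl2 (chr5:90903649-90903898, plus strand), where the capitals mark GGG, any 2 bases and TTTCC, a form of the kappa B motif.
Ifit1: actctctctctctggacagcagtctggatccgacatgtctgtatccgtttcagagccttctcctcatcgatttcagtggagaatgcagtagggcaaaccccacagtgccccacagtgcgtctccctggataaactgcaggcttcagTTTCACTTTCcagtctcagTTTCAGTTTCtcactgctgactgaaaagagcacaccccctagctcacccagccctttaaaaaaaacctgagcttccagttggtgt
Ifit3: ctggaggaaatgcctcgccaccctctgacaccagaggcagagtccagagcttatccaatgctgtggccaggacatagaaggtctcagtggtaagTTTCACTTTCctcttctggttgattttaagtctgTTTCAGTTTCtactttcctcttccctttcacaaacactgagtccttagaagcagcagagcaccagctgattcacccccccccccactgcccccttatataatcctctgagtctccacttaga
Ddx60: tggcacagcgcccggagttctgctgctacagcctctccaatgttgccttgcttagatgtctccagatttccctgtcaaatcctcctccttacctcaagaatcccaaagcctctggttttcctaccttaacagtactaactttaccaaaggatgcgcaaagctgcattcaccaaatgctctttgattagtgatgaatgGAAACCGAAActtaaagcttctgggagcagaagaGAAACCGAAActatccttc
Cxcl2: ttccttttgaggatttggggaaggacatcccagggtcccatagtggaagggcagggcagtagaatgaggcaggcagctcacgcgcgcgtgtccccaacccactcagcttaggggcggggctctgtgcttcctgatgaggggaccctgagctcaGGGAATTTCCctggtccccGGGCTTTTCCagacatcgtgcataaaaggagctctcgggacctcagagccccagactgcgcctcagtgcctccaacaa
Over windows of 300 bases (250 before to 50 after the start), searched on both strands, the response element was found in 25 of the 71 interferon response genes with a promoter in the table (35.21%), against 3.64% of the 14368 measured genes with one. The kappa B motif was found in 5 of 56 genes that were lower in GPR41 KO whichever array was left out (8.929%), against 1.893% of the measured genes. Neither motif was found in its own group alone: the response element was in 4 of those 56 (7.143%), and the kappa B motif in 4 of the 71 interferon genes (5.634%). Copies of the 2 motifs overlapped each other in 3 of 32851 promoters, and in none of the 4 shown. The 4 genes shown were picked for their copies. The 250 bases ahead of Ccl3, Lcn2, Saa3 and Il1b held 0 copies of the kappa B motif. Those ahead of Oasl2 held 0 copies of the response element. A match describes the letters only and is not a measured binding site.

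The median signal of an array lay between 80.7 and 96.7, and GPR41 KO 1 was the lowest. The ratio of 3′ to 5′ Gapdh signal, a sign of RNA quality, lay between 0.778 and 0.858. No probe set of the array was tied to Ffar3, so the GPR41 KO label could not be checked by its own gene. The library labelled GPR43 KO 1 had an Ffar2 signal of 1598 against 189 in replicate 2, and that label is not borne out by this gene. This library enters the spread, the levels set side by side, the direct comparison of the knockouts and the counts against each other array. WT 1 was the highest array for 7 of 9 pancreas genes, the others being Cela1 and Clps, which were highest in GPR43 KO. Cpa1, a pancreatic carboxypeptidase, had a signal of 492 in WT 1 and 3.54 in WT 2. Colon markers were well expressed in all arrays, with the summed signal of 22 absorptive colonocyte markers between 330569 and 509136.

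GPR41 KO colon had far lower signals of many inflammatory genes than WT colon after ethanol, and higher signals of some genes for lipid synthesis, ion transport and detoxification. By limma, 450 of 18194 genes (2.47%) passed an adjusted p of 0.05, of which 151 (0.83%) rose and 299 (1.64%) fell. At least 2-fold changes were counted in 66 of the genes that rose and in 263 of those that fell. WT and GPR41 KO arrays did not overlap for any of the 450, as for 44.8% of all genes. A stricter set of 87 genes (0.478%) passed with all arrays and again whichever of the 6 arrays was left out, with the same sign. These are called stable below, and comprised 13 genes that rose (0.0715%) and 74 that fell (0.407%). The shares of all genes given here are the background for each count of list members below. The stable rises depended on the setting more than 1.5-fold: they were 2 with probe sets averaged, 0 with no intensity trend, 7 with a pseudocount of 72, 8 after quantile normalization and 30 with a filter on weak genes. Of the 74, 67 fell at least 4-fold and 26 at least 16-fold.

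**Figure D1:**
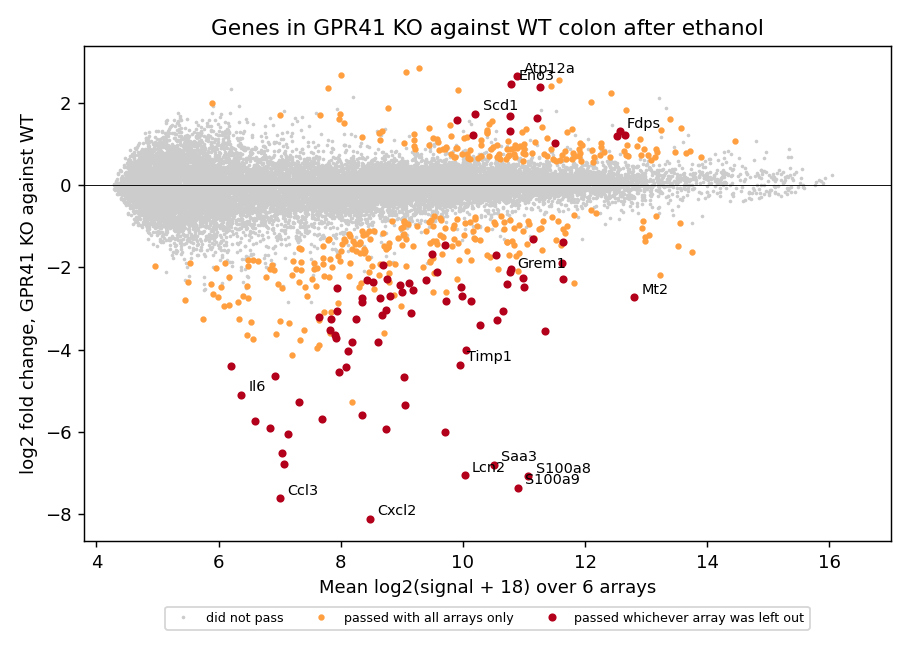
Each point is a gene, with its mean log2(signal + 18) over the 6 arrays on the x axis and its log2 fold change of GPR41 KO against WT on the y axis; grey genes did not pass, orange genes passed with all arrays only and red genes passed whichever array was left out. The red points lie mostly below 0, down to -8.10 for Cxcl2, while the 13 red points above 0 reach 2.64.

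The number of genes that passed depended on single arrays: it was 605 with WT 1 left out, 181 with WT 2 left out, and 129 or 152 with GPR41 KO 1 or GPR41 KO 2 left out. Median centring of the arrays moved the median of all genes from -0.01 to 0.10 on the log2 scale and the split from 151 higher and 299 lower to 221 higher and 280 lower, so small rises are read relative to that shift.

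Several chemokines that attract neutrophils fell strongly, and Cxcl2 had the largest fall among the stable genes. Cxcl2, a chief neutrophil attractant on chromosome 5, had a signal of 12296 and 20041 in the WT arrays and of 34.4 and 44.7 in the GPR41 KO arrays. It fell by 8.10 ± 0.33 on the log2(signal + 18) scale (SE of the limma fit, n = 2 per group here and below, adjusted p = 2.66e-05). The groups did not come near each other, and the GPR41 KO values lay in the range where background makes up most of a signal, so the fold depends on the added 18. Its relative Cxcl3 had a signal of 2049 and 2208 in WT and of 7.7 and 23.1 in GPR41 KO, which gave a log2 change of -6.04 ± 0.35 (adjusted p = 0.000149). Cxcl5, made mainly by epithelium, had a signal of 1251 and 2458 in WT and of 85.8 and 47.8 in GPR41 KO, which gave a log2 change of -4.42 ± 0.48 (adjusted p = 0.00276). No GPR41 KO array overlapped with a WT array for any of these 3 genes, as for all 450 genes that passed and 44.8% of all genes. Of the 8 measured members of the list of CXC chemokines for neutrophils and their receptors, 6 fell, none rose and 3 were stable. The median log2 fold change of that list was -3.23, against -0.01 for all genes. Cxcl13, which attracts B cells, also fell, with a signal of 2353 and 3766 in WT and of 389 and 425 in GPR41 KO (-2.82 ± 0.27, adjusted p = 0.00131).

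Chemokines that attract monocytes and eosinophils fell as well. Ccl3, made by activated myeloid cells, had a signal of 2856 and 5542 in WT and was near 0 in GPR41 KO at 1.57 and 3.54, which gave a log2 change of -7.61 ± 0.43 (adjusted p = 0.000149). Ccl2, the main monocyte attractant, had a signal of 1523 and 3505 in WT and of 133 and 163 in GPR41 KO, which gave a log2 change of -3.82 ± 0.36 (adjusted p = 0.00131). Ccl7 fell by 3.71 ± 0.42 (adjusted p = 0.00311) from a WT signal of 1016 and 1984 to 72.9 and 114. In all 3 genes the lowest WT signal was more than 8 times the highest GPR41 KO signal. Ccl11, or eotaxin, an eosinophil attractant, fell by 2.73 ± 0.32 (adjusted p = 0.00405), from 887 and 1870.2 to 188 and 169.8. The receptor gene Ccr1 fell by 2.35 ± 0.25 (adjusted p = 0.00251), a change that did not pass when all its probe sets were averaged. In the list of 15 CC chemokines and receptors, 7 fell, 5 of them stably, with a median of -1.11, and none rose. Members with no such loss were Ccl6, with 15877 and 16867 in WT against 16029 and 19209.9 in GPR41 KO, and Ccl8, with 691 and 705 against 973 and 1103, neither of which passed.

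Cytokine genes of the interleukin 1 and interleukin 6 families followed. Il1b had a signal of 9023 and 17119.6 in WT and of 189 and 166 in GPR41 KO, which gave a log2 change of -5.99 ± 0.27 (adjusted p = 3.01e-05). Il1a, the second interleukin 1 gene, had 455 and 799.6 in WT and 16.3 and 7.06 in GPR41 KO, which gave a log2 change of -4.41 ± 0.44 (adjusted p = 0.0017). Il1r2, a decoy receptor for interleukin 1, had 2225 and 5935 in WT and 49.9 and 68.3 in GPR41 KO, which gave a log2 change of -5.58 ± 0.48 (adjusted p = 0.00105). Ligands and decoy receptor were thus low together, while Il18 of the same family had 3379 and 3013 in WT and 3123 and 3160.3 in GPR41 KO and did not pass (adjusted p = 0.964). Of 16 measured members of that family 6 fell and 3 of them stably, against 1.64% and 0.407% of all genes. None rose, and the median was -0.62.

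Il6, a cytokine that signals through gp130 and STAT3, had a signal of 607 and 1529 in WT and of 24.9 and 1.25 in GPR41 KO, which gave a log2 change of -5.10 ± 0.56 (adjusted p = 0.00277). Socs3, an inhibitor induced by that pathway, had 1499 and 2996 in WT and 256 and 205 in GPR41 KO, which gave a log2 change of -3.11 ± 0.33 (adjusted p = 0.00273). Stat3 itself had 3183 and 4031 against 2587 and 2473 and did not pass (adjusted p = 0.173). Of 13 genes of the interleukin 6 family, its receptors and their signalling 5 fell (median -0.74) and none rose, and the count was 3 without GPR41 KO 1 and 2 without GPR41 KO 2 or WT 2. Csf2rb, the shared receptor chain for GM-CSF and related cytokines, fell by 3.05 ± 0.24 (adjusted p = 0.000814), from 1390.0 and 2046 to 197 and 180.2. Among 18 colony-stimulating factors, TNF family members and cytokines of Th17 cells, 6 fell (median -1.08), and 1 was left without GPR41 KO 1, 3 without GPR41 KO 2 and 2 without WT 2. Tnf had 201 and 254 in WT and 33.1 and 34.5 in GPR41 KO and did not pass at -2.24 ± 0.54 (adjusted p = 0.0773).

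Some transcription regulators tied to this response fell too. Cebpb and Cebpd, which switch on acute phase and myeloid genes, fell by 2.47 ± 0.21 (adjusted p = 0.00105) and 1.90 ± 0.21 (adjusted p = 0.00311). Cebpb had a signal of 5088 and 7538 in WT and of 1322 and 927 in GPR41 KO. Of 18 genes for NF-kB subunits, inhibitors and feedback, 3 fell (Ier3, Irak3 and Tnfaip3), none rose and the median was -0.55. Without GPR41 KO 1, GPR41 KO 2 or WT 2 the count was 1, and without WT 1 it was 5. Ier3, an early NF-kB target, was the stable member at -2.40 ± 0.27 (adjusted p = 0.00311), while the subunit Rela had 2010.0 and 2566 in WT and 1996 and 1858 in GPR41 KO and did not pass (adjusted p = 0.504).

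Neutrophil genes had the brightest WT signals among the genes that fell. S100a8 and S100a9, the subunits of calprotectin, reached 32866 and 56389 (S100a8) and 35541 and 58734 (S100a9) in WT, among the strongest signals of those arrays. In GPR41 KO the signals were 356 and 254 for S100a8 and 336 and 203 for S100a9. S100a8 fell by 7.08 ± 0.43 (adjusted p = 0.000174) and S100a9 by 7.35 ± 0.59 (adjusted p = 0.000814). Their groups did not overlap, as for 44.8% of all genes. Mmp8, the collagenase stored in neutrophil granules, had 1593 and 4405 in WT and 28.3 and 39.8 in GPR41 KO, which gave a log2 change of -5.69 ± 0.54 (adjusted p = 0.00131). Hdc, the histamine-making enzyme, had 716 and 1962 in WT and 4.5 and 4.93 in GPR41 KO, which gave a log2 change of -5.73 ± 0.49 (adjusted p = 0.00105). Chil3, a chitinase-like protein of myeloid cells, fell by 5.35 ± 0.31 (adjusted p = 0.000149), from 3603 and 7535 to 124 and 98.5.

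Of 19 measured neutrophil markers 13 fell, 8 of them stably, none rose and the median was -3.33. The summed signal of the 19 was 98046 and 184769 in WT and 4712 and 3870 in GPR41 KO. Elane and Mpo, granule genes made at early stages of neutrophil growth, were weak in WT, and neither passed. Elane had 22.9 and 21.1 in WT and 18.8 and 165 in GPR41 KO, and Mpo had 50.7 and 20.2 against 3.26 and 59.4. The Elane signal in GPR41 KO 2 lay above the median signal of that array (93.7). In tissue RNA, fewer neutrophils and less RNA per neutrophil cannot be told apart, and how much of the loss of chemokine and cytokine signal moved with neutrophil number was not tested.

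**Figure D2:**
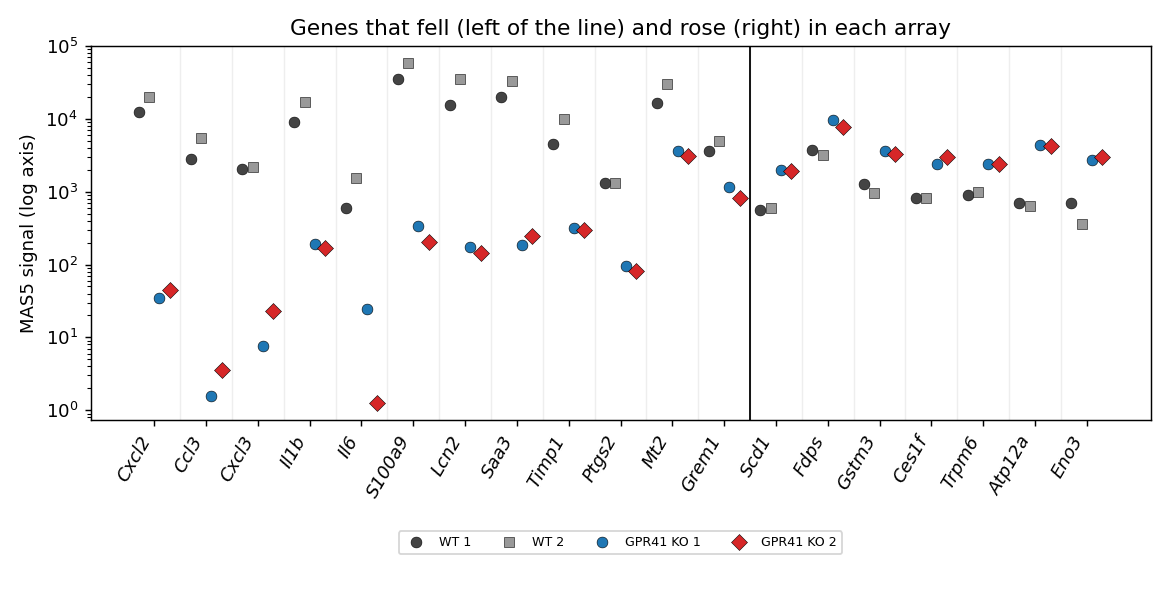
MAS5 signal on a log axis for 12 genes that fell and 7 genes that rose in GPR41 KO whichever array was left out, with 1 point for each of the 2 WT and 2 GPR41 KO arrays. The groups do not overlap in any of the 19 genes, as in all 450 genes that passed and in 44.8% of all genes. The gap is widest for Cxcl2 and Ccl3.

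Acute phase genes fell with them. Saa3, a serum amyloid A made in inflamed tissue, had a signal of 19929.7 and 33708 in WT and of 186 and 251 in GPR41 KO, and had the lowest adjusted p of all genes (-6.79 ± 0.24, adjusted p = 1.6e-05). Lcn2, a protein that withholds iron from bacteria, had 15634 and 34828 in WT and 175 and 143 in GPR41 KO, which gave a log2 change of -7.05 ± 0.31 (adjusted p = 3.01e-05). Hp, or haptoglobin, had 4139 and 10957 in WT and 117 and 74.9 in GPR41 KO, which gave a log2 change of -5.92 ± 0.66 (adjusted p = 0.00298). Each had nearly all of its WT signal missing in both GPR41 KO arrays, whereas Saa1, which healthy colon epithelium also makes, had 28487 and 25021 in WT and 22248 and 18599 in GPR41 KO and did not pass (adjusted p = 0.317). Lrg1 and Serpina3n, further acute phase genes, fell by 4.01 ± 0.28 (adjusted p = 0.000505) and 3.27 ± 0.20 (adjusted p = 0.000174). The complement protease gene C1ra fell by 1.66 ± 0.16 (adjusted p = 0.0017), from 1274 and 1413 to 364 and 464. Of 23 acute phase and complement genes 11 fell, 4 of them stably, none rose and the median was -1.07. The count was 4 without GPR41 KO 1, 6 without GPR41 KO 2 and 7 without WT 2.

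Antimicrobial genes were split. Of 22, 6 fell and Reg4 rose (median -0.55), none of them stably, and without GPR41 KO 1 none of the 6 passed. Slpi, an inhibitor of neutrophil elastase, had a signal of 16402 and 31030.4 in WT and of 4611 and 5322 in GPR41 KO (-2.18 ± 0.26, adjusted p = 0.0042, and 0.062 without GPR41 KO 1). Reg4 had 2499 and 1696 in WT and 15396 and 6154 in GPR41 KO (2.23 ± 0.36, adjusted p = 0.0162, and 0.109 without WT 2). Dmbt1 and Lypd8, secreted by normal colon epithelium, did not pass: Lypd8 had 52396 and 64613 in WT and 64962 and 72008 in GPR41 KO.

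Receptors by which myeloid cells sense microbes and antibodies fell, but most Toll-like receptors did not pass. Clec4e (Mincle), which binds mycobacterial glycolipid, had a signal of 1263 and 2121 in WT and of 27.3 and 23.3 in GPR41 KO, which gave a log2 change of -5.26 ± 0.50 (adjusted p = 0.00131). Its neighbour Clec4d fell by 4.03 ± 0.36 (adjusted p = 0.0012), from 1302 and 1946 to 112 and 57.1. Cd14, the co-receptor for lipopolysaccharide, fell by 2.29 ± 0.26 (adjusted p = 0.00333), from 6174 and 12074 to 1762 and 1746. Tlr4, the receptor that CD14 serves, had 362 and 351 in WT and 331 and 368 in GPR41 KO, so the groups overlapped (adjusted p = 0.977). Of 21 pattern recognition receptors and partners 8 fell, 3 of them stably, and none rose (median -0.64). The count was 3 without GPR41 KO 1, 5 without GPR41 KO 2 and 4 without WT 2.

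Among 13 Fc receptors and ITAM adaptors 6 fell, 4 of them stably, and the median was -1.53. Pirb, an inhibitory receptor of myeloid cells, had the largest of these changes, from 789.7 and 1026 in WT to 75.5 and 82.5 in GPR41 KO (-3.24 ± 0.32, adjusted p = 0.0016). The adaptor genes Fcer1g and Tyrobp, which carry the signal of many myeloid receptors, fell by 2.81 ± 0.33 (adjusted p = 0.00339) and 2.26 ± 0.26 (adjusted p = 0.00311). The kinase Syk, used by both, had 999.5 and 1270.2 in WT and 1064 and 1114 in GPR41 KO and did not pass (adjusted p = 0.934).

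Macrophage markers fell only in part. Of 18, Cd14, Cd163, Cd68, Itgam, Lyz2 and Mpeg1 fell, with Cd14 the stable one (median -0.77), and the count was 1 without GPR41 KO 1 and 3 without GPR41 KO 2 or WT 2. The summed signal of the 18 was 30579 and 46036 in WT and 15211 and 19151 in GPR41 KO. C1qa, a marker of resident macrophages, had 1839.7 and 2893 in WT and 1686 and 2017 in GPR41 KO, so the groups overlapped (adjusted p = 0.534). Other stable falls among genes of leukocytes included Srgn (-3.54 ± 0.29, adjusted p = 0.000866), the granule proteoglycan serglycin, and Ncf1 (-2.70 ± 0.30, adjusted p = 0.00295), a subunit of the oxidase that makes the respiratory burst. Acod1, which makes itaconate in activated macrophages, had 1715 and 3433 in WT and 4.14 and 4.15 in GPR41 KO, which gave a log2 change of -6.79 ± 0.64 (adjusted p = 0.00131). Arg1, or arginase, fell by 4.66 ± 0.37 (adjusted p = 0.000814), from 2764 and 5627 to 168 and 113.

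Most lymphocyte markers did not pass, but the share that did was not below the 2.47% of all genes. Of 16 T and NK cell markers, Zap70 rose and none fell, and of 15 B and plasma cell markers Iglv1 rose and none fell. Zap70 had 375 and 319 in WT and 823 and 709 in GPR41 KO (1.10 ± 0.18, adjusted p = 0.0155), and was lost without WT 2 (0.0934), GPR41 KO 1 (0.159) or GPR41 KO 2 (0.0763).

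Genes that remodel tissue fell in GPR41 KO. Timp1, an inhibitor of matrix proteases, had a signal of 4458 and 9920.0 in WT and of 315 and 298 in GPR41 KO, which gave a log2 change of -4.36 ± 0.34 (adjusted p = 0.000814). Mmp3, or stromelysin, fell by 3.82 ± 0.41 (adjusted p = 0.00276), from 953 and 2168 to 122 and 58.1. Mmp9, or gelatinase B, fell by 2.74 ± 0.28 (adjusted p = 0.00212), from 829.9 and 1408 to 161 and 135. Of 19 matrix proteases and inhibitors 9 fell, 4 of them stably, none rose and the median was -1.39. Without GPR41 KO 1, GPR41 KO 2 or WT 2 the count was 4. Timp3, a matrix-bound inhibitor, had 1187 and 1393 in WT and 1264 and 1408 in GPR41 KO and did not pass (adjusted p = 0.912). Thbs1, or thrombospondin 1, released by platelets and stroma, fell by 2.70 ± 0.23 (adjusted p = 0.00105), from 2900.0 and 4517 to 450.3 and 655. Of 18 coagulation and plasmin genes 6 fell (median -0.87), with 2 left without either GPR41 KO array and 3 without WT 2.

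Ptgs2, the inducible cyclooxygenase that starts prostaglandin synthesis, had 1304 and 1308 in WT and 94.8 and 82.2 in GPR41 KO, which gave a log2 change of -3.64 ± 0.33 (adjusted p = 0.00125). Alox5ap, needed for leukotriene synthesis, fell by 3.41 ± 0.28 (adjusted p = 0.000964), from 3760.0 and 7744 to 465 and 521. These were the only members of 20 prostaglandin and leukotriene genes that passed, and both were stable. Grem1, a BMP antagonist of the stroma around the crypts, had 3615 and 5052 in WT and 1157 and 819.7 in GPR41 KO, which gave a log2 change of -2.11 ± 0.21 (adjusted p = 0.00157). Col4a1, a collagen of basement membranes, fell by 1.39 ± 0.16 (adjusted p = 0.00311), from 5087 and 6389 to 1908 and 2439.6. Of 15 leukocyte and endothelial adhesion genes 6 fell (median -0.72), none of them stably. That count was 0 without GPR41 KO 1, 3 without GPR41 KO 2 and 2 without WT 2.

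Some stress and metal response genes were also lower. Mt2, or metallothionein 2, a metal-binding protein induced by zinc and inflammation, had a signal of 16537 and 30117 in WT and of 3588 and 3139 in GPR41 KO, which gave a log2 change of -2.73 ± 0.24 (adjusted p = 0.00112). Of 19 heat shock and stress genes Mt1, Mt2, Hmox1, Hspb1 and Hspb8 fell and none rose, with Mt2 the stable one. The count was 1 without either GPR41 KO array and 2 without WT 2. Of 28 glycolysis and hypoxia-linked genes, Bnip3, Pfkfb3 and Slc2a3 fell, and the count was 1 without GPR41 KO 2 or with probe sets averaged, and 2 without WT 2 or GPR41 KO 1. Slc2a3, a glucose transporter of leukocytes and neurons, had 734 and 1221 in WT and 175 and 177 in GPR41 KO (-2.32 ± 0.28), and it did not pass when all its probe sets were averaged. The genes that fell stably also included small secreted or epithelial proteins: Wfdc21 (-6.52 ± 0.56, adjusted p = 0.00105) and Sprr2h (-5.91 ± 0.43, adjusted p = 0.000628), a small proline-rich protein of stressed epithelium. Sprr2h had 1010.4 and 1985 in WT and 3.73 and 8.26 in GPR41 KO.

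Several genes of lipid synthesis rose. Scd1, which puts the double bond into newly made fatty acids, had a signal of 556 and 596 in WT and of 1996 and 1913 in GPR41 KO, a rise of 1.73 ± 0.13 (adjusted p = 0.000814). Fdps, the enzyme that makes farnesyl diphosphate on the way to cholesterol, had 3762 and 3191 in WT and 9648 and 7656 in GPR41 KO, a rise of 1.31 ± 0.15 (adjusted p = 0.00298). The groups did not overlap in either gene, as for 44.8% of all genes. The mean over both probe sets of Fdps gave 0.41 (adjusted p = 0.51), so the rise of Fdps was carried by the brighter probe set. Hmgcs1, which makes the first committed precursor of mevalonate, had 6607 and 4617 in WT and 14555 and 13487 in GPR41 KO. It rose by 1.34 ± 0.18 (adjusted p = 0.0064), and did not pass without GPR41 KO 1 (0.0845) or GPR41 KO 2 (0.0574). Of 18 cholesterol synthesis enzymes Cyp51, Dhcr7, Fdps, Hmgcs1, Nsdhl, Sqle and Tm7sf2 rose, none fell and the median was 0.76. In 17 of the 18 the lower GPR41 KO array exceeded the higher WT array, and Ggps1 was the exception with 577 and 604 in WT and 404 and 502 in GPR41 KO. The genome-wide share with GPR41 KO higher and no overlap was 20.9%. The count of 7 was 1 without either GPR41 KO array, 3 without WT 2, 10 without WT 1 and 2 with probe sets averaged.

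In fatty acid synthesis Acly, Fads2, Fasn, Me1, Scd1, Scd2 and Thrsp rose among 21 genes, with none lower and a median of 0.48. Fasn, the fatty acid synthase, had 1316 and 1192 in WT and 2530.5 and 2441 in GPR41 KO (0.98 ± 0.12, adjusted p = 0.0041, and 0.055 without GPR41 KO 1). Scd2, a close relative of Scd1, had 3589 and 2383 against 11743 and 9318 (1.83 ± 0.23, adjusted p = 0.00475, and 0.0665 without GPR41 KO 1). The count of 7 was 1 without GPR41 KO 1, 3 without GPR41 KO 2 and 4 without WT 2 or either GPR43 KO array. Srebf2, the regulator of cholesterol synthesis genes, rose by 0.90 ± 0.16 (adjusted p = 0.0223), from 651 and 635 to 1337 and 1099.6. Its call was lost without WT 2 (0.113) or either GPR41 KO array (0.197 and 0.0714). Abca1, which exports cholesterol, fell by 1.40 ± 0.20 (adjusted p = 0.00856), from 699 and 857 to 254 and 312, and was lost without WT 2 (0.0826) or GPR41 KO 1 (0.0862).

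Genes of fat cells, which also express many lipid synthesis genes, differed beside these rises. Of 13 adipocyte markers Car3, Lpl and Pparg rose, Fabp4 fell and the median was 0.32, and none of the 13 passed without GPR41 KO 1 or GPR41 KO 2. Car3, a carbonic anhydrase abundant in fat and muscle, had 136 and 240.0 in WT and 1433 and 1375 in GPR41 KO (2.83 ± 0.35, adjusted p = 0.00438, and 0.0615 without GPR41 KO 1 and 0.0513 without GPR41 KO 2). Adipoq, or adiponectin, made by fat cells, had 40.7 and 174 in WT and 368 and 311 in GPR41 KO and did not pass (adjusted p = 0.187), and Lep, or leptin, was at most 21.4 in any array. The summed signal of the 13 was 7129.7 and 8354 in WT and 9683 and 9899 in GPR41 KO, and its part in the rise of lipid genes was not tested.

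Some ion and water transport genes of colon epithelium rose. Atp12a, the colonic proton pump that takes up potassium, had a signal of 709.8 and 628 in WT and of 4319 and 4184 in GPR41 KO, a rise of 2.64 ± 0.30 (adjusted p = 0.00327) and the largest among the stable genes. Trpm6, a magnesium channel, had 906 and 991 in WT and 2375 and 2421 in GPR41 KO, a rise of 1.32 ± 0.12 (adjusted p = 0.00126). In both genes the arrays of a group lay close together and the groups were well apart. Of 30 transport genes Ano1, Aqp8, Atp12a, Clca4a, Kcnk5, Slc26a2 and Slc9a2 rose, none fell and the median was 0.44. Without either GPR41 KO array or WT 2 the count was 2, without either GPR43 KO array 3 and without WT 1 it was 13. The groups did not overlap, with GPR41 KO higher, in 20 of the 30, against 20.9% of all genes. Slc26a3, the chloride exchanger of the colon surface, had 12078 and 5108 in WT and 16234 and 16389 in GPR41 KO and did not pass (1.05 ± 0.32, adjusted p = 0.162).

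Some detoxification enzymes rose. Gstm3, a glutathione transferase, had 1260.0 and 976 in WT and 3640.2 and 3345 in GPR41 KO, a rise of 1.64 ± 0.16 (adjusted p = 0.00131). Ces1f, a carboxylesterase, had 818 and 826 in WT and 2391 and 3003 in GPR41 KO, a rise of 1.68 ± 0.15 (adjusted p = 0.0013). Of 37 xenobiotic, alcohol and antioxidant enzymes Cyp2c65, Cyp2s1, Gstk1, Gstm1, Gstm3, Nqo1 and Ugt2b5 rose and none fell, with a median of 0.23. That count was 1 without GPR41 KO 1, 2 without GPR41 KO 2, 3 without either GPR43 KO array and 4 without either WT array. The genes of ethanol breakdown did not pass: Adh1, alcohol dehydrogenase, had 14101 and 13352 in WT and 19796 and 23362 in GPR41 KO (0.65 ± 0.21, adjusted p = 0.176). Aldh2, which removes acetaldehyde, had 7779 and 6324 against 9985 and 9605 (0.48 ± 0.14, adjusted p = 0.146). Neither overlapped between the groups, as for 44.8% of all genes.

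The other stable rises were of genes with varied roles. Eno3, a muscle enolase, rose by 2.46 ± 0.28 (adjusted p = 0.00322), from 706 and 365 to 2750.1 and 3007. Sptssb, a subunit of the enzyme that starts sphingolipid synthesis, rose by 1.18 ± 0.11 (adjusted p = 0.00131), from 3561 and 3687 to 8144 and 8345. Cmah, which makes a sialic acid form, rose by 1.58 ± 0.15 (adjusted p = 0.00129), and Entpd5, an enzyme of glycoprotein folding, by 1.03 ± 0.12 (adjusted p = 0.00315), and neither passed when probe sets were averaged. The remaining 3 were Ppfia3 (1.22 ± 0.14, adjusted p = 0.00322), 2210407C18Rik (2.38 ± 0.28, adjusted p = 0.00404) and 4931406C07Rik (1.22 ± 0.12, adjusted p = 0.00157).

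Most markers of the epithelium and of the other tissue layers did not pass. Among absorptive colonocyte, smooth muscle and fibroblast markers the share that did was above the 2.47% of all genes. Of 22 absorptive colonocyte markers Aqp8 and Slc37a2 rose (median 0.29), and their summed signal was 330569 and 363345 in WT and 440153 and 450545 in GPR41 KO. Of 18 goblet cell markers none passed (median 0.28), with 256937 and 230358 in WT against 341746 and 294061 in GPR41 KO. Muc2, the main colon mucin, had 38837 and 47373 in WT and 40689 and 47811 in GPR41 KO. Of 18 smooth muscle markers Actg2 and Synm rose (median 0.30), with summed signals of 127634 and 149484 against 162885 and 186673. Of 17 crypt stem and progenitor markers and 24 proliferation genes none passed, with medians of 0.12 and 0.09. Among 19 fibroblast markers Fn1 fell (median -0.29), a count that was 6 without WT 1. Epithelial and muscle markers were thus summed higher in GPR41 KO beside the rises in lipid, transport and enzyme genes, and their part in those rises was not tested.

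**Figure D3:**
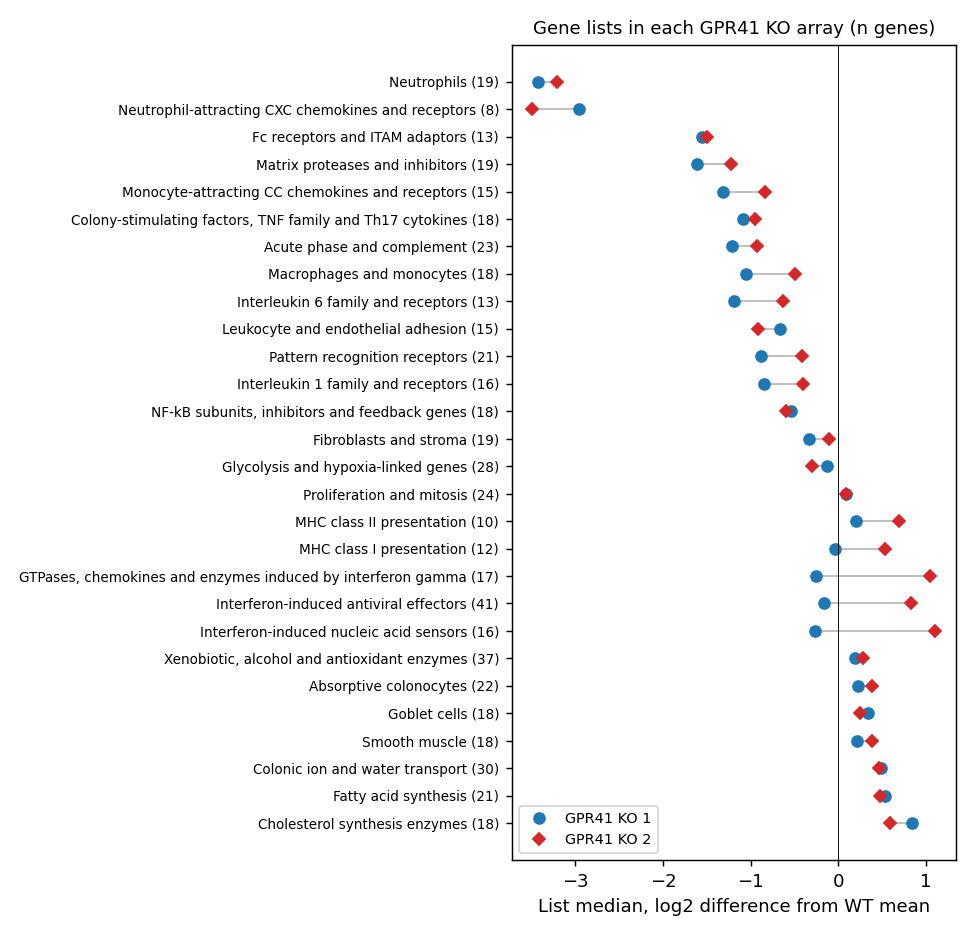
Median log2 difference from the WT mean over the genes of each of 28 lists, for GPR41 KO 1 (blue circles) and replicate 2 (red diamonds), with the number of genes in brackets. Inflammatory lists lie below 0 and lipid and transport lists above 0 in both arrays, while the lists of interferon-induced genes lie below 0 in replicate 1 and between 0.83 and 1.11 in replicate 2.

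Both GPR41 KO arrays carried the inflammatory and metabolic differences, as the plot of list medians shows. The neutrophil list lay 3.43 below the WT mean in replicate 1 and 3.21 below it in replicate 2. For cholesterol enzymes the medians were 0.85 and 0.59, and for transport genes 0.48 and 0.47. All genes had medians of -0.04 and 0.01.

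Most genes for sensing and handling short-chain fatty acids did not pass, but the share that did was not below the 2.47% of all genes. Of 20 such genes Hcar2 and Arrb2 fell, none rose and the median was 0.16. Hcar2, the receptor for butyrate and niacin, had a signal of 854 and 1377 in WT and of 40.6 and 50.6 in GPR41 KO (-4.12 ± 0.62, adjusted p = 0.0113), and the call was lost without WT 2 (0.1), GPR41 KO 1 (0.109) or GPR41 KO 2 (0.0821). Arrb2, a beta-arrestin, had 578 and 965 in WT and 229 and 257 in GPR41 KO (-1.55 ± 0.28, adjusted p = 0.0226), and was lost without the same 3 arrays (0.157, 0.18 and 0.125). Ffar2, the gene for GPR43, had 1194 and 1118 in WT and 1857 and 1933 in GPR41 KO, higher in both arrays but not past the test (0.70 ± 0.72, adjusted p = 0.73), with a spread that includes the unequal GPR43 KO arrays. The butyrate transporters also did not pass: Slc5a8 had 1902 and 970.0 in WT and 2622 and 3215 in GPR41 KO (adjusted p = 0.114), and Slc16a1 had 8277 and 5772 against 9255 and 7244 (adjusted p = 0.669).

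Ffar3 lies on chromosome 7 from 30854330 to 30856178 (GRCm38.p6). Of 62 measured genes within 1 Mb of it, Cox7a1 rose and Tyrobp, Dmkn and Fxyd5 fell, or 6.45%, against 2.47% of all genes and 2.25% of the 178 genes within 5 Mb. Tyrobp was the stable one. Fxyd5, which modulates the sodium pump, had 1621 and 2646 in WT and 515 and 629 in GPR41 KO (-1.83 ± 0.22, adjusted p = 0.00429, and 0.0577 without GPR41 KO 1). Cox7a1, a subunit of cytochrome oxidase, had 1036 and 555 in WT and 1689 and 2007 in GPR41 KO (1.26 ± 0.25, adjusted p = 0.0403), and did not pass in any fit without 1 array except that without WT 1. Dmkn had 840.4 and 1248 against 251 and 197 (-2.12 ± 0.38, adjusted p = 0.0235), and was lost without WT 2 (0.182) or either GPR41 KO array (0.131 and 0.177).

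GPR43 KO colon shares the WT arrays as its control, so its levels are set side by side with those of GPR41 KO without a further comparison against WT. Cxcl2 had 48.7 and 19.1 in GPR43 KO beside 34.4 and 44.7 in GPR41 KO, Saa3 had 546 and 452 beside 186 and 251, and Scd1 had 1279.5 and 1508 beside 1996 and 1913. Atp12a had 1513 and 3407 in GPR43 KO beside 4319 and 4184 in GPR41 KO. The direct comparison of GPR43 KO with GPR41 KO, which includes the library labelled GPR43 KO 1 with its Ffar2 signal near that of GPR41 KO, called 0 genes by limma, with 984 at an unadjusted p under 0.05. A gene that missed this threshold is not shown to be alike in both knockouts. Leaving out an array gave at most 2 calls: Bcar1 (2.02) without WT 1 or WT 2, Ffar2 (-3.21) and Lpo (2.50) without GPR43 KO 1, and Tnfsf13os (-4.02) without GPR43 KO 2.

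GPR41 KO 2 differed from every other array by a high level of interferon response genes. Among 92 such genes (18 for receptors and signalling, 16 nucleic acid sensors, 41 antiviral effectors and 17 genes induced by interferon gamma) it lay above GPR41 KO 1 in 82. Over all genes the median difference of these arrays was also above 0, so more genes lay above GPR41 KO 1 than below it. Among the 92, GPR41 KO 2 was at least 2-fold above replicate 1 in 46, or 50% against 5.37% of all genes, and at least 2-fold below it in 0, against 3.01%. The median difference between the arrays was 0.997 on the log2 scale for these genes and 0.04 for all genes, with a range of -0.59 to 3.52. Replicate 2 was the highest of the 6 arrays in 66 of the 92 (14.2% of all genes), and replicate 1 in 3 (12.9%). These are descriptions of 1 array without replicate, and no test applies to them.

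**Figure D4:**
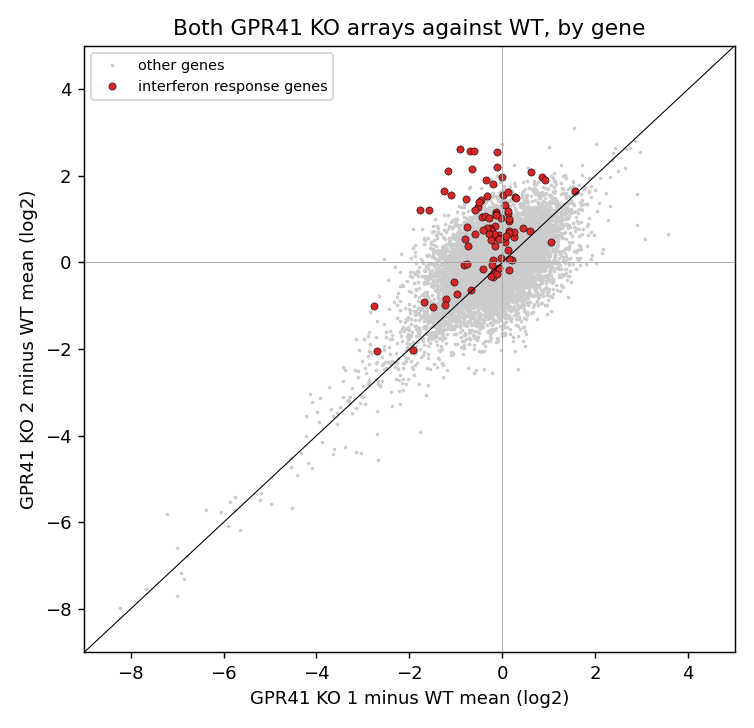
Each point is a gene, with the log2 difference of GPR41 KO 1 from the WT mean on the x axis and that of replicate 2 on the y axis; the 92 interferon response genes are red and all others grey. Of the red points 82 lie above the line of equal difference, 46 of them by at least 2-fold, as do 5.37% of all genes.

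Many antiviral effectors were high in this array. Ddx60, a helicase of the antiviral response on chromosome 8, had a signal of 1518 in GPR41 KO 2 and of 140.3 in replicate 1. In the other arrays it had 248 and 229 in WT and 174 and 142 in GPR43 KO, so it lay 2.53 (log2) above the highest of the other 5. Ifit1, which binds foreign RNA caps, had 4845 in GPR41 KO 2 and 518 in replicate 1, with 597 and 1083 in WT and 798 and 498 in GPR43 KO. Its neighbours on chromosome 19 were alike: Ifit3 had 1762 against 262 and Ifit2 had 659.7 against 117. Rsad2 (viperin), which blocks viral replication, had 3266 in replicate 2 and 453 in replicate 1, and 393 and 1309 in WT. Rtp4 had 3969.9 and 514, and 904 and 1747 in WT. WT 2 was the next highest array for Ifit1, Ifit2, Ifit3, Rsad2 and Rtp4, and WT 1 for Ddx60.

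Sensors of viral nucleic acid were raised in the same array. Oasl2, a relative of the RNA-sensing OAS enzymes, had 3861 in GPR41 KO 2 and 384 in replicate 1, with 709.7 and 1096 in WT and 438 and 357 in GPR43 KO. Oas3 had 559.7 against 104, and Dhx58, a partner of RIG-I, had 600.2 against 80.3. Zbp1, a sensor that triggers cell death, had 1614 against 330.0. Ifih1 (MDA5) showed a smaller gap, with 3264 against 1780.4 and with 1603 and 1618 in WT. Sting1, a sensor adaptor for DNA, was not part of the rise, with 374 in replicate 2 and 309.9 in replicate 1, and 548 and 1039 in WT.

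Of the 18 receptor, kinase and regulator genes, GPR41 KO 2 lay above GPR41 KO 1 in 14 (median difference 0.31), and Irf9, Stat2 and Usp18 differed at least 2-fold. The 8 receptor and kinase genes differed by -0.07 to 0.38 on the log2 scale. Jak1 had 2131 in GPR41 KO 2 and 2195 in replicate 1, and Ifnar1, a chain of the type I receptor, had 508 and 422. Usp18, the induced brake on that receptor, had 1588 in replicate 2 and 122 in replicate 1, the largest difference between these arrays among the 92 genes (3.52 on the log2 scale). Stat2 had 452 against 181 and Irf9 had 909.7 against 369. The 9 measured genes of the interferon ligand list were weak in every array, with a highest signal of 79.9. Ifnz, a type I interferon gene outside that list and named after its values were seen, had 101 and 118 in WT, 64.7 and 3.58 in GPR41 KO, and 112 and 60.6 in GPR43 KO.

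**Figure D5:**
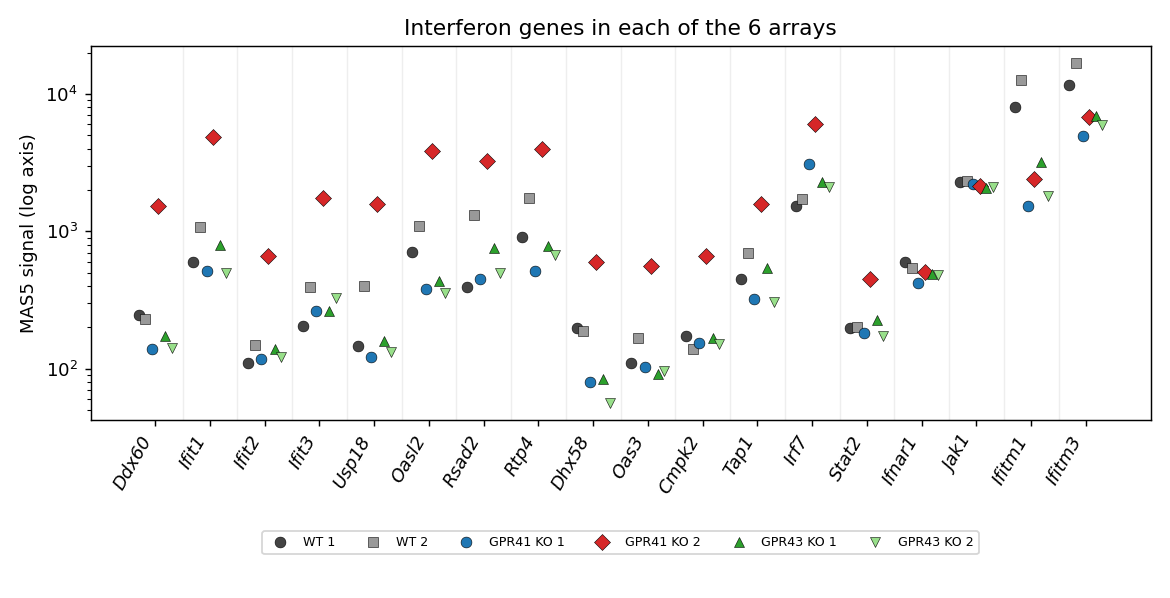
MAS5 signal on a log axis for 18 interferon pathway genes in all 6 arrays, with 1 symbol for each array. GPR41 KO 2 lies above the other 5 arrays for Ddx60, the Ifit genes, Usp18 and Oasl2, but not for Ifnar1, Jak1, Ifitm1 or Ifitm3.

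Genes induced mainly by interferon gamma were raised too. Gbp3, a guanylate-binding protein, had 489.7 in GPR41 KO 2 and 107 in replicate 1, with 113 and 139.9 in WT. Igtp, an immunity-related GTPase, had 2133 against 741. Cxcl10, a chemokine usually counted among interferon targets, was not highest there, with 153 in replicate 2 and 81.9 in replicate 1 against 276 and 334 in WT. Of 12 class I antigen presentation genes GPR41 KO 2 was the highest of the 6 arrays in 11, against 14.2% of all genes. Tap1, the peptide transporter, had 1575 against 321 in replicate 1, and the immunoproteasome subunit Psmb8 had 3512 against 1181.

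Across the whole array, GPR41 KO 2 was at least 2-fold above each of the other 5 arrays for 66 of 18194 genes (0.363%), of which 23 were among the 92 interferon genes. For GPR41 KO 1 the count was 30 genes (0.165%) and 0 of the 92. Among the 23 were 11 effectors, 7 sensors, 4 genes induced by interferon gamma and 1 signalling gene, Usp18. The highest signal was at least 100 in 12814 genes, 88 of the 92 among them. Of these, the 25 genes in which replicate 2 exceeded the others by most held 17 of the 92. Of the 23 genes at least 2-fold above each other array, 16 had a promoter in the table. The response element was found in 9 of the 16 (56.25%), the 3 shown above among them. It was found in 35.21% of the 71 interferon response genes and 3.64% of the measured genes with a promoter. The 16 were picked by the values of this array. Outside the lists, the granzyme genes of cytotoxic lymphocytes were among those 25: Gzma had 800.1 in replicate 2 against 238 in replicate 1, and 105 and 115 in WT. Gzmb had 373 against 152. The summed signal of 16 T and NK cell markers was 4281 in replicate 2, 2508 in replicate 1, and 1965 and 2267 in WT, and its part in the interferon difference was not tested. Among these markers Ccl5 (1200 in replicate 2 against 383 in replicate 1), Gzma and Gzmb had the largest gaps in signal. Cd247, Cd4, Cd8a, Prf1 and Zap70 were lower in replicate 2 than in replicate 1, and the other markers were higher. Lgals9 (galectin 9) had 9344 against 3365, and Trim30d had 1104 against 307.

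In the other direction, GPR41 KO 2 lay farthest below the rest for Slc2a5, a fructose transporter, with 11.2 against 93.1 in replicate 1 and 154 and 137 in WT, followed by Ifnz. Rrp9, of ribosomal RNA processing, had 102 against 591. Replicate 1 had its own high genes outside the interferon lists, among them Ly6m, with 2439.8 against 1050.2 in replicate 2. It lay well below the rest for Wdfy1, with 298 against 966 in replicate 2 and 1568 and 1244 in WT.

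Most interferon genes did not pass the comparison of genotypes, but the share that did was not below the 2.47% of all genes. Of the 92, Irf7 and Ido1 rose and Ifi204, Ifitm1 and Ifitm3 fell, none of them stably. The median log2 fold change was 0.29 with both GPR41 KO arrays, 0.76 with replicate 2 alone and -0.20 with replicate 1 alone, so the group has no single direction. Irf7, the regulator that amplifies interferon production, was above WT in both arrays, with 1522 and 1729 in WT and 3075 and 6096 in GPR41 KO (1.41 ± 0.26, adjusted p = 0.0287). It was lost in every fit without 1 array except that without GPR41 KO 1 (largest adjusted p 0.109, without WT 2). Ido1, which degrades tryptophan, had 122 and 105 in WT and 368 and 394 in GPR41 KO (1.60 ± 0.26, adjusted p = 0.0147), and was lost without WT 2 (0.0826) or either GPR41 KO array (0.122 and 0.132). Ifitm1 and Ifitm3, membrane proteins that hinder viral entry, were lower in both arrays. Ifitm1 had 7995 and 12599 in WT and 1522 and 2412 in GPR41 KO (-2.38 ± 0.32, adjusted p = 0.00653, and 0.0797 without GPR41 KO 1). Ifitm3 had 11536 and 16823 against 4944 and 6845 (-1.26 ± 0.21, adjusted p = 0.0183), and was lost without WT 2 (0.0857) or either GPR41 KO array (0.176 and 0.0502). Ifi204, with 53.4 and 64.5 in WT and 2.21 and 0.803 in GPR41 KO (-1.98 ± 0.37, adjusted p = 0.0287), was weak in all arrays and did not pass in any fit without 1 array.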

How the data were processed

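Total RNA of mouse colon, extracted with Trizol and a Qiagen kit, was labelled with biotin from 2 µg and hybridised to Affymetrix mouse 430 2.0 arrays, per the labels' protocols. The deposited values are a linear MAS5 intensity per probe set, scaled by the authors between arrays, per the submitters' processing notes. The sources used here give no MAS5 version. The mean without the outer 2% of probe sets was 499.8 in every array. Of 45101 probe sets 64 were controls, 34945 had 1 gene symbol in the array's annotation table, 932 several and 9160 none. The probe set with the highest mean log2 signal stood for its gene, which left 18194 genes. A pseudocount of 18, about the 20th percentile, was added before log2, so weak signals draw together. No filter was applied. All 6 arrays entered a limma 3.58.1 model (lmFit, eBayes with trend, R 4.3.3) with a mean for each group. It left 3 residual degrees of freedom, or 8.66 after moderation. Two-sided p-values received Benjamini-Hochberg adjustment over all genes. With 2 arrays against 2, the smallest p of an exact permutation test is 0.333. Named genes were taken from the largest stable changes, the stable members of each list, the interferon, cholesterol and short-chain fatty acid lists, cell markers, genes near Ffar3 and genes in which 1 GPR41 KO array stood apart. The members and the lists were chosen with earlier results of these data known, so no list is independent support. Alternatives covered the pseudocount, the scaling, a filter, the choice of probe set, the spread, the arrays in the fit and a replicate block. Promoter sequences and positions came from RefSeq tables of GRCm38.p6.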

Additional observations from a re-analysis of the deposited data

How the results depend on the processing

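Of 450 genes that passed in GPR41 KO against WT, the count was 291 with all probe sets of a gene averaged, 19 with no intensity trend in the spread, and between 129 and 605 when 1 array was left out. The cause of the low count without the trend was not tested. The other settings gave 474 with a pseudocount of 1, 422 with 72, 417 after quantile normalization, 501 after median centring, 541 with only genes above the 40th percentile of signal, 326 with the 4 WT and GPR41 KO arrays alone and 388 with a replicate block. The count of genes stable to leaving out any array was 87, and 52 with a pseudocount of 72, 151 with the filter, 41 with probe sets averaged and 0 with no trend. All 87 passed under both pseudocounts, both scalings, the 4 arrays and the block. Of the 78 that the filter kept, 78 passed. With probe sets averaged 79 passed, and Angptl4, Ccr1, Cd53, Cmah, Emb, Entpd5, Fdps and Slc2a3 did not. With no trend 16 passed. GPR43 KO against GPR41 KO gave between 0 and 2 genes when 1 array was left out and 0 with all arrays. The count of interferon genes at least 2-fold higher in GPR41 KO 2 than in GPR41 KO 1 was 46, and lay between 37 and 49 over the alternatives. Deviations of same-numbered arrays from their group means correlated at 0.03 between WT and GPR41 KO, so no pairing by number was seen across all genes. A value near 0 over all genes does not exclude it in some genes, and a few given below followed the number in every group. Interferon ligands have no value with the filter, which leaves none of them. Low signals limit precision: with values near background, folds depend on the pseudocount, and 2 arrays a group leave few calls safe from the loss of 1 array.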

Other observations

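A few secreted products of goblet and Paneth-like cells differed with the replicate number within every genotype, and were chosen after their values were seen. Ang4, an antimicrobial ribonuclease, had a signal of 8879 and 1138 in WT, 38044 and 5056 in GPR41 KO, and 50573 and 7178 in GPR43 KO. Itln1, or intelectin 1, had 94.9 and 9.5 in WT, 449.7 and 63.1 in GPR41 KO, and 589 and 62 in GPR43 KO. Retnlb, a goblet cell protein that binds bacteria, had 18606 and 11951 in WT, 28316 and 7485 in GPR41 KO, and 34609.6 and 11398 in GPR43 KO. In each of these genes the array numbered 1 was the higher one in all 3 groups, while the correlation of deviations over all genes was near 0 for each pair of groups. Muc2, the main goblet cell mucin, had no such difference, with 40689 and 47811 in GPR41 KO.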
